A study of Mus musculus with 7 samples.

Results

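A set of 39 genes that copy DNA or carry cells from G1 into S phase was described in B16F10 mouse melanoma cells, an established line, and in dermal endothelial cells of the mouse (MDEC, 1 sample). The members are a list of symbols, drawn up with earlier results of these data known. They cover origin licensing, the MCM helicase, Cdc45 and GINS, the sliding clamp and its loaders, the replicative polymerases, Okazaki fragment maturation, nucleotide synthesis, the G1/S cyclins with E2F factors, and chromatin assembly. All 39 were measured, among 19938 genes on 7 Affymetrix Mouse Gene 1.0 ST arrays, 1 array a sample. The study set B16F10 samples with and without PECAM1, an adhesion receptor of endothelial cells, beside endothelial cells. The PECAM1− samples were parental B16F10 cells, which are an uncloned population, and clone A1. The PECAM1+ samples were clones A2, A3, A4 and A5 (n = 4). No sample carried a drug or an engineered allele by its label. Each clone name stood for 1 clone on 1 array, and the labels named no separate cultures. The p-values therefore cover only the spread from array to array, which may be technical. B16F10 cells and their clones grew in DMEM with serum and MDEC in DMEM with an endothelial growth supplement, so that medium and cell type cannot be told apart. All cells were harvested with Accutase, and no source used here gives their density or growth state at harvest.

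Replication starts when the origin recognition complex, Cdc6 and Cdt1 load the MCM helicase onto DNA in G1. Cyclin E with its kinase, and the Dbf4-dependent kinase, then let Cdc45 and GINS join, and the active helicase unwinds DNA for the polymerases, which the PCNA clamp holds on the template. Most of these genes are targets of E2F factors, which retinoblastoma proteins hold back in resting cells, so their mRNAs are high in cycling cells and low in cells outside the cycle. In bulk RNA such as this, fewer cycling cells and less of these mRNAs in each cell cannot be told apart.

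Pecam1 and lineage markers followed the labels. The Pecam1 log2 level was 5.43 in clone A1 and 5.27 in parental cells, 11.00 to 11.07 in clones A2 to A5 and 11.72 in MDEC. The 7 melanocyte markers lay at 8.49 to 13.09 on the B16F10 arrays and at 4.29 to 7.34 in MDEC, while the 7 endothelial markers lay at 3.99 to 5.87 and at 8.37 to 12.41. The median log2 level over all genes was 6.60 to 6.69 on the 7 arrays. Of 4 leukocyte markers, Ptprc lay at 4.96 to 5.15 on the B16F10 arrays. Cd68, which is also a lysosomal protein, stood at 10.07 in clone A1, above 7.52 in parental cells and 7.96 to 8.16 in the PECAM1+ clones. In MDEC Cd68 was higher still, at 11.18. The summed log2 level of the 4 was 26.1 in clone A1, 23.7 in parental cells and 24.2 to 24.3 in the PECAM1+ clones, with Cd68 alone high in clone A1: Cd3e stood there at 6.30 and Itgam at 4.73, against 6.34 to 6.54 and 4.64 to 4.83 in the clones. The summed level of 6 fibroblast and mural markers was 37.8 in clone A1, 39.9 in parental cells and 39.1 to 42.0 in the PECAM1+ clones. That of 3 keratinocyte markers was 16.5, 16.8 and 16.4 to 17.0 in the same order. In MDEC the summed levels were 27.5 for leukocyte, 38.8 for fibroblast and mural and 17.1 for keratinocyte markers. Against the PECAM1+ clones, Cd68 was called higher (limma adjusted p = 0.00312) and Col1a2 lower, at −0.72 (adjusted p = 0.0452). The part of these markers in the results on clone A1 was not tested.

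Clone A1 held less mRNA of every member than each other B16F10 array. Its log2 level was below that of all 5 other B16F10 arrays for 39 of 39 members, against 28.9% of all genes. In limma's fit of clone A1 against the 4 PECAM1+ clones, 39 of 39 members were called lower and 0 higher, where 9.33% of all genes were called lower and 11.2% higher. The median difference of the members was −2.23 log2 units, from −3.98 for Rrm2, a ribonucleotide reductase subunit, to −0.95 for Pcna, with standard errors (SE) of 0.06 to 0.24 and adjusted p from 0.00156 to 0.0137. The median over all genes was 0.00. At least 4-fold lower in clone A1 than the mean of the PECAM1+ clones were 22 of the 39 members, against 1.01% of all genes. In clone A1, 6 members (Orc1, Cdc6, Dscc1, Pole, Ccne2 and E2f8) stood under a log2 level of 6, and with no detection calls in the files used here their signal over background was not known. These levels overlapped those of the endothelial markers on the B16F10 arrays, so the differences of the 6 are lower bounds on size where the signal is background, and no exact fold is given for them. Clone A1 was 1 array, and the fit took its spread to be that of the PECAM1+ clones. Without clone A5, the calls of Cdc6, Gins3, Rpa2 and Fen1 were lost (35 remained), and without clone A3 that of Fen1 (38 remained).

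**Figure D1:**
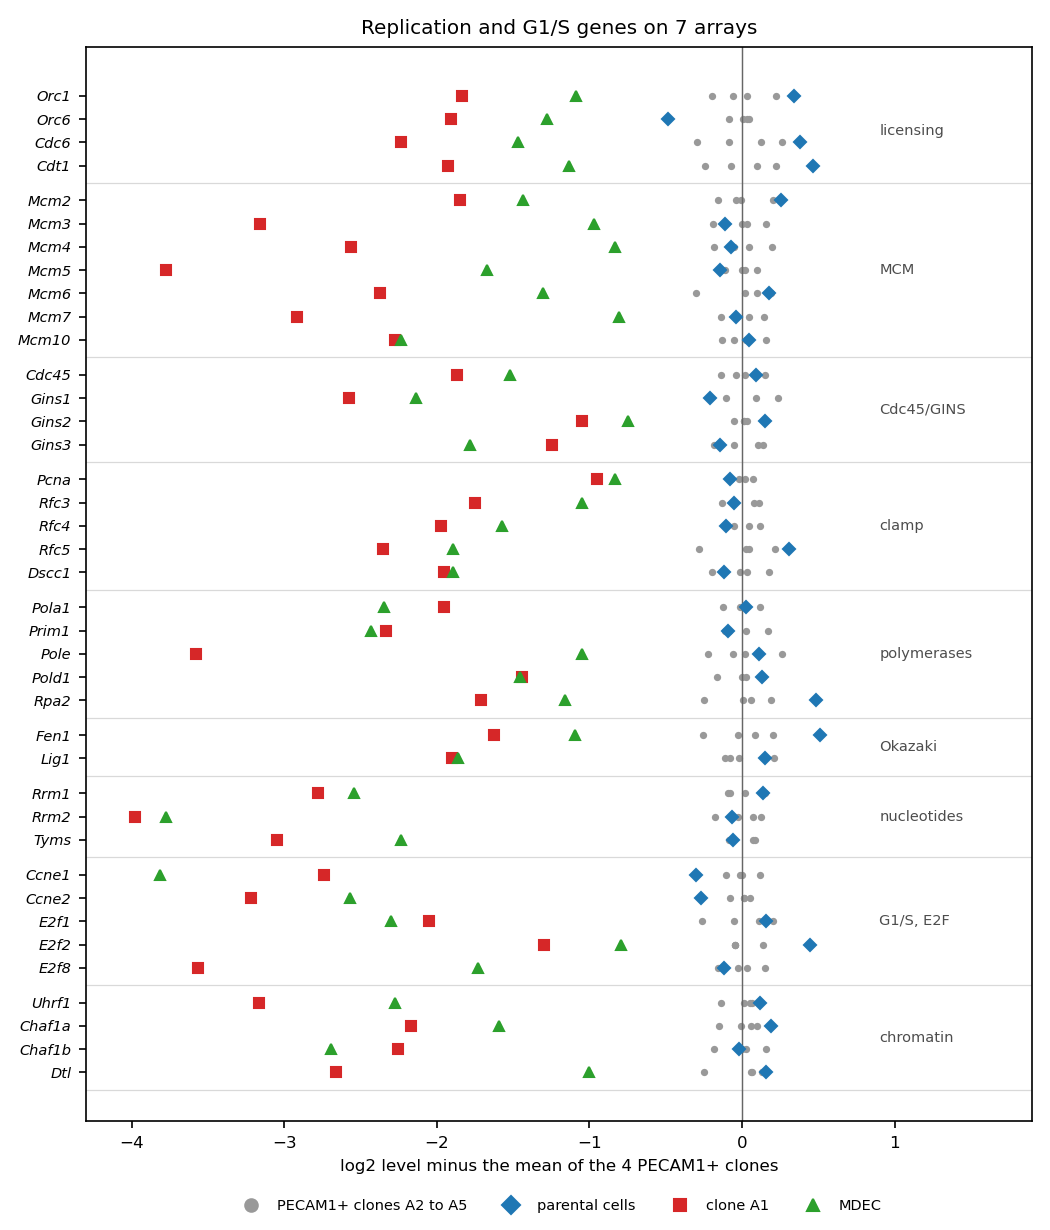
Log2 level of each of the 39 members on each array minus the mean of the 4 PECAM1+ clones (horizontal axis, log2 units), with members in rows grouped by role. Grey points are clones A2 to A5, blue diamonds parental cells, red squares clone A1 and green triangles MDEC; every red square lies at −0.95 or lower, and the blue diamonds lie between −0.49 and 0.51.

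Promoter sequences are shown because all members were lower in the same array and E2F factors are known regulators of this group. RefSeq windows (mouse assembly GRCm38.p6) from 250 bases before to 50 bases after an annotated start were found for 33 of 39 members, and a gene with several windows was counted when any held the word. The words were chosen after the expression values were seen, and both strands were searched. Any of TTTGGCGC, TTTCCCGC, TTTGCCGC and TTTCGCGC was present for 15 of 33 members (45.5%), 17 of 67 other replication genes (25.4%) and 1 of 21 mitosis genes (4.76%). The share was 3.48% of 15614 measured genes and 2.26% of all 32851 windows of 300 bases. In 10 members a word lay before the start, and in 5 only after it. Among the members with a word, the 6 shown here have the largest clone A1 differences of those whose words lie within 160 bases before the start. Each line gives those 160 bases 5′ to 3′ on the gene's strand, ending at the base before the start, with the E2F words of either strand in capitals.
Mcm5: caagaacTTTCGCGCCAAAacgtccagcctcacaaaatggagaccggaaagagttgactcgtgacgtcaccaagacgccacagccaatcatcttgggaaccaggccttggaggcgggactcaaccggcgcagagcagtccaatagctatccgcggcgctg
Dtl: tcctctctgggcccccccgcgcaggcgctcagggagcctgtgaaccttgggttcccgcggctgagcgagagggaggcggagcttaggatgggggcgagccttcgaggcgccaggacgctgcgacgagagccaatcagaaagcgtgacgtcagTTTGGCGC
Mcm6: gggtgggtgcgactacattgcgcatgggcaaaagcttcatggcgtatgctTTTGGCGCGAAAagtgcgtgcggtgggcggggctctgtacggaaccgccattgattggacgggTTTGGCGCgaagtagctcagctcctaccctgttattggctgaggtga
Cdc6: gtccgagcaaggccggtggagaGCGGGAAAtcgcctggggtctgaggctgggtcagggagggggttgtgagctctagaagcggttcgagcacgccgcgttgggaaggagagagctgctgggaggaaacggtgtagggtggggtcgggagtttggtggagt
Pola1: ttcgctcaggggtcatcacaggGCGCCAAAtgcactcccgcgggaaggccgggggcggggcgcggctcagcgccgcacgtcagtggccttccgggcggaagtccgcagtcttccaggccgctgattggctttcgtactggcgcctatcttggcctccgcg
Orc1: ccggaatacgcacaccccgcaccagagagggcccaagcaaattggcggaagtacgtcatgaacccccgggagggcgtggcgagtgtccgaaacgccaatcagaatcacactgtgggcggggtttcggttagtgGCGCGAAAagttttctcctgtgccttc
These stretches lie at chr8:75109349-75109508 on the plus strand for Mcm5, chr1:191575545-191575704 on the minus strand for Dtl and chr1:128359706-128359865 on the minus strand for Mcm6. Those of Cdc6, Pola1 and Orc1 lie at chr11:98907991-98908150 on the plus strand, chrX:93632156-93632315 on the minus strand and chr4:108579294-108579453 on the plus strand. The Mcm5 capitals hold TTTCGCGC and, overlapping it on the other strand, TTTGGCGC. In Mcm6 the same words overlap with the strands exchanged, followed by a further TTTGGCGC at −47 to −40, counted so that −1 is the base before the start. In Dtl the word ends at the base before the start, at −8 to −1, and in Orc1 it lies at −27 to −20. A match is a string of letters and no measure of binding.

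Members with and without an E2F word were both lower in clone A1. The median difference from the PECAM1+ clones was −1.95 for the 15 members with an E2F word (from −3.77 to −1.24) and −2.21 for the 18 without (from −3.98 to −0.95), and the ranges overlapped. Promoter words known from other cell cycle genes were counted in the same windows. CCAAT, the box that the NF-Y factor binds, was in 22 of 33 members (66.7%), 32 of 67 other replication genes (47.8%), 17 of 21 mitosis genes (81.0%) and 41.7% of measured genes (37.4% of all windows). TTTGAA or TTCGAA, the cell cycle homology words found in many G2 and mitosis promoters, were in 8 of 33 members (24.2%), 14 of 67 other replication genes (20.9%), 17 of 21 mitosis genes (81.0%) and 19.0% of measured genes (19.2% of all windows). In the members, 1 pair of matches to different motifs overlapped.

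**Figure D2:**
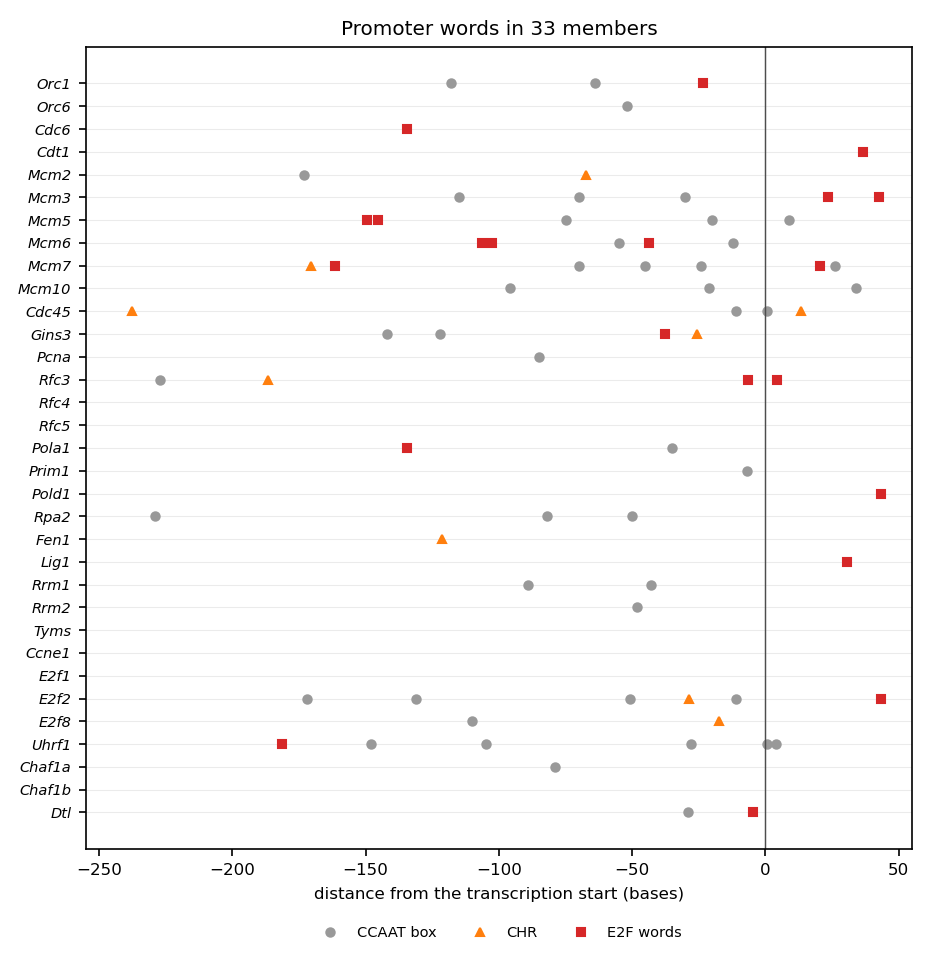
Positions of the promoter words in the 33 members with a RefSeq window (horizontal axis, bases from the annotated start; vertical line, the start), with all windows of a gene drawn on its row. Red squares are E2F words, grey circles CCAAT and orange triangles the cell cycle homology words; 15 members have a red square and 8 a triangle.

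Origin licensing was lower in clone A1 in all 4 members, by a median of −1.91 log2 units against the PECAM1+ clones. Cdc6, which helps load the MCM helicase, had log2 levels of 5.82 in clone A1, 8.44 in parental cells, 8.32, 8.18, 7.76 and 7.97 in clones A2 to A5 and 6.59 in MDEC. Clone A1 was the lowest array for Cdc6 and MDEC the next. The clone A1 difference of Cdc6 was −2.23 ± 0.24 (SE), with a limma adjusted p of 0.0105. Cdt1, the partner of Cdc6 in loading, stood at 8.23 in clone A1, 10.62 in parental cells, 10.38, 10.25, 9.91 and 10.08 in clones A2 to A5 and 9.02 in MDEC. Parental cells were thus the highest array for both loading factors. For Cdt1 the clone A1 difference was −1.93 ± 0.20 (adjusted p = 0.0103), 3.80-fold lower. The smallest measured difference in the role was that of Orc1, the ATPase subunit of the origin recognition complex. Orc1 stood at 5.27 in clone A1, 7.45 in parental cells, 7.33, 7.14, 6.91 and 7.05 in clones A2 to A5 and 6.02 in MDEC. Clone A1 lay apart from the B16F10 arrays here too, by −1.84 ± 0.17 (adjusted p = 0.00815). Orc6, another subunit of the complex, differed by −1.90 ± 0.07. The differences of Orc1 and Cdc6 are lower bounds on size where their levels in clone A1, 5.27 and 5.82, are background. Whether Orc1 truly differed less than Orc6 and Cdt1 is therefore not settled. Of the remaining subunits, Orc2 was lower by a smaller amount in clone A1, −0.64 (adjusted p = 0.0337), while Orc3 at 0.23, Orc4 at −0.01 and Orc5 at −0.11 did not pass (adjusted p of 0.156, 0.942 and 0.669). Gmnn, geminin, which blocks Cdt1, differed by −1.14 ± 0.24. It stood at 4.62 in clone A1, 5.50 in parental cells and 5.58 to 6.12 in the PECAM1+ clones, and its signal over background was not known.

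The MCM helicase and Mcm10 were lower in clone A1 in all 7 members, with a median of −2.56. Mcm5 had log2 levels of 6.79 in clone A1, 10.42 in parental cells, 10.66, 10.56, 10.58 and 10.45 in clones A2 to A5 and 8.89 in MDEC. The 5 other B16F10 arrays lay close together and clone A1 far below them. Its difference from the PECAM1+ clones was −3.77 ± 0.09, 13.7-fold lower (limma adjusted p = 0.00163). Mcm3 stood at 7.33 in clone A1, 10.38 in parental cells, 10.65, 10.52, 10.30 and 10.49 in clones A2 to A5 and 9.52 in MDEC, again with clone A1 lowest. That difference was −3.16 ± 0.15, 8.96-fold lower (adjusted p = 0.00303). Mcm2, with the smallest difference of the 7, stood at 9.41 in clone A1, 11.51 in parental cells, 11.46, 11.22, 11.10 and 11.25 in clones A2 to A5 and 9.82 in MDEC. Clone A1 and MDEC both lay below the other arrays. The difference of Mcm2 was −1.85 ± 0.15 (adjusted p = 0.00643), 3.60-fold lower. Of the other subunits of the ring, Mcm7 differed by −2.92 ± 0.12, Mcm4 by −2.56 ± 0.16 and Mcm6 by −2.37 ± 0.21. Mcm10, which helps activate the ring, differed by −2.27 ± 0.13. Of 3 related genes, Mcmbp, which binds free MCM proteins, was called lower at −0.84 (adjusted p = 0.0062), and Mcm8 at −0.93 and Mcm9 at −0.10 were not (adjusted p of 0.0573 and 0.609).

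Cdc45 and the GINS complex complete the active helicase, and all 4 members were lower in clone A1, with a median of −1.56. Gins1 had log2 levels of 6.43 in clone A1, 8.80 in parental cells, 9.10, 8.90, 8.79 and 9.24 in clones A2 to A5 and 6.87 in MDEC. Its clone A1 difference was −2.57 ± 0.20 (limma adjusted p = 0.00594), 5.95-fold lower. Clone A1 was the lowest array and MDEC the next. Cdc45 stood at 7.34 in clone A1, 9.30 in parental cells, 9.23, 9.17, 9.07 and 9.36 in clones A2 to A5 and 7.69 in MDEC. The difference was −1.87 ± 0.12 (adjusted p = 0.00469), 3.66-fold lower. Gins2, with the smallest difference, stood at 7.46 in clone A1, 8.66 in parental cells, 8.52, 8.54, 8.46 and 8.52 in clones A2 to A5 and 7.76 in MDEC. The 4 clones hardly varied, and the difference of −1.05 ± 0.06 (adjusted p = 0.00345) was 2.07-fold. Some pairs of B16F10 arrays held an identical deposited value for Gins2, Rfc4 and E2f2, and between clones this makes the spread of a gene small. Of the other genes of this step, 7 of 7 were called lower. They include Ticrr (treslin), at −3.01 ± 0.05, Wdhd1, at −1.99, and Topbp1, at −1.73, all of which act when the helicase is switched on. Ticrr stood at 5.44 in clone A1, so its difference is a lower bound on size where that is background.

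The clamp and its loaders were lower in clone A1 in all 5 members, with a median of −1.96. Rfc5, a subunit shared by the clamp loaders, had log2 levels of 8.87 in clone A1, 11.53 in parental cells, 11.44, 11.27, 10.94 and 11.25 in clones A2 to A5 and 9.33 in MDEC. Its difference was −2.36 ± 0.21 (limma adjusted p = 0.00744), 5.13-fold lower. Rfc4, another shared subunit, stood at 8.79 in clone A1, 10.66 in parental cells, 10.88, 10.66, 10.71 and 10.81 in clones A2 to A5 and 9.19 in MDEC. For both subunits clone A1 was the lowest array and MDEC the next. Rfc4 differed by −1.97 ± 0.10 (adjusted p = 0.00332). Pcna, the clamp itself, had the smallest difference of all 39 members and stood at 10.71 in clone A1, 11.58 in parental cells, 11.64, 11.59, 11.73 and 11.68 in clones A2 to A5 and 10.83 in MDEC. Clone A1 remained below every other array, by −0.95 ± 0.07 from the PECAM1+ clones (adjusted p = 0.00504), which is 1.93-fold. Pcna was the only member with more than 1 probe set in the annotation. Dscc1 and Chtf18 belong to the loader that also serves sister chromatid cohesion: Dscc1, a member, differed by −1.96 ± 0.15 and Chtf18 by −1.53 ± 0.08. Dscc1 stood at 4.57 in clone A1, so its difference is a lower bound on size where that is background. Of the 5 other genes of the role, 3 were called lower, also with Atad5 at −1.70 and Rfc2 at −1.43, and Chtf8, at 0.11 (adjusted p = 0.64), was not.

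Polymerases, primase and the single-strand binding protein were lower in all 5 members, with a median of −1.95. Pole, the catalytic subunit of the leading-strand polymerase, had log2 levels of 5.52 in clone A1, 9.21 in parental cells, 9.36, 9.04, 8.88 and 9.12 in clones A2 to A5 and 8.05 in MDEC. MDEC lay between clone A1 and the other arrays, far from clone A1. The clone A1 difference of Pole was −3.58 ± 0.20 (limma adjusted p = 0.00359), a lower bound on size where 5.52 is background. Prim1, the primase subunit that makes RNA primers, stood at 7.46 in clone A1, 9.70 in parental cells, 9.96, 9.71, 9.68 and 9.82 in clones A2 to A5 and 7.36 in MDEC. Here MDEC lay just below clone A1, and both lay below the other arrays. Prim1 differed in clone A1 by −2.33 ± 0.13 (adjusted p = 0.00356). Pold1, the catalytic subunit of the lagging-strand polymerase, stood at 7.47 in clone A1, 9.04 in parental cells, 9.05, 8.91, 8.75 and 8.94 in clones A2 to A5 and 7.46 in MDEC. Its difference was the smallest of the role, −1.45 ± 0.13 (adjusted p = 0.00779), 2.73-fold. Pola1, which extends the primers, differed by −1.95 ± 0.11 and Rpa2, which coats single-stranded DNA, by −1.71 ± 0.18. Among 10 other genes of the role, 7 were called lower, led by Pole2 at −2.24 ± 0.08 (adjusted p = 0.00199), Prim2 at −1.91 and Pola2 at −1.48. The accessory subunits did not all follow. Pold4, the small subunit of the Pold1 enzyme, was called higher in clone A1: it stood at 9.43 there, 7.98 in parental cells, 7.91, 8.12, 8.03 and 7.89 in clones A2 to A5 and 9.16 in MDEC, a difference of 1.44 ± 0.11 (adjusted p = 0.00614). Pole4, at −0.10, did not pass (adjusted p = 0.643).

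Okazaki fragment maturation has 2 members, both lower in clone A1. Lig1, the ligase that seals fragments, had log2 levels of 7.64 in clone A1, 9.69 in parental cells, 9.75, 9.46, 9.43 and 9.52 in clones A2 to A5 and 7.68 in MDEC. The difference was −1.90 ± 0.15 (limma adjusted p = 0.00595), 3.74-fold, and MDEC lay beside clone A1. Fen1, the nuclease that trims the flaps, stood at 7.16 in clone A1, 9.30 in parental cells, 8.99, 8.87, 8.53 and 8.76 in clones A2 to A5 and 7.69 in MDEC. Its difference was −1.63 ± 0.19 (adjusted p = 0.0132), 3.10-fold, and this is the call that was lost without clone A3 (adjusted p = 0.0554) and without clone A5 (adjusted p = 0.0601). Dna2, a nuclease for long flaps, differed by −2.40 ± 0.28 (adjusted p = 0.013), and 3 of the 4 other genes of the step were called lower.

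Nucleotide synthesis was lower in all 3 members, with a median of −3.05, the lowest of the 9 role medians. Rrm2, the S-phase subunit of ribonucleotide reductase, had log2 levels of 7.75 in clone A1, 11.66 in parental cells, 11.80, 11.85, 11.55 and 11.70 in clones A2 to A5 and 7.95 in MDEC. Clone A1 and MDEC were both far below the other arrays. Rrm2 in clone A1 differed by −3.98 ± 0.13 (limma adjusted p = 0.00196), 15.8-fold lower. Tyms, which makes thymidylate, stood at 7.54 in clone A1, 10.53 in parental cells, 10.67, 10.50, 10.52 and 10.66 in clones A2 to A5 and 8.35 in MDEC. Its difference was −3.05 ± 0.10 (adjusted p = 0.00196), 8.29-fold. Rrm1, the large reductase subunit, stood at 8.54 in clone A1, 11.46 in parental cells, 11.47, 11.34, 11.23 and 11.24 in clones A2 to A5 and 8.78 in MDEC. It differed by −2.79 ± 0.12 (adjusted p = 0.00278), 6.89-fold. The salvage enzyme Tk1, thymidine kinase of S phase, was lower by a like amount, −3.81 ± 0.06 (adjusted p = 0.000785), and 4 of 6 other genes of the role were called lower. Rrm2b, the p53-induced alternative to Rrm2, went the other way: it stood at 8.26 in clone A1, 7.36 in parental cells, 7.51, 7.55, 7.55 and 7.51 in clones A2 to A5 and 7.61 in MDEC. Clone A1 was its highest array, by 0.73 ± 0.04 over the PECAM1+ clones (adjusted p = 0.00412).

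The G1/S cyclins and E2F factors were lower in clone A1 in all 5 members, with a median of −2.74. E2f8, a repressor that peaks in S phase, had log2 levels of 5.50 in clone A1, 8.95 in parental cells, 9.22, 9.10, 8.91 and 9.04 in clones A2 to A5 and 7.34 in MDEC. It differed by −3.57 ± 0.13 (limma adjusted p = 0.00212), a lower bound in the same sense as for Pole. Ccne2, a cyclin E, stood at 5.63 in clone A1, 8.58 in parental cells, 8.86, 8.86, 8.77 and 8.90 in clones A2 to A5 and 6.28 in MDEC. Clone A1 was the lowest array for both, and parental cells lay just under the PECAM1+ clones for Ccne2. The Ccne2 difference was −3.22 ± 0.07 (adjusted p = 0.00156), likewise a lower bound. E2f2, an activator and the smallest difference of the role, stood at 6.21 in clone A1, 7.95 in parental cells, 7.64, 7.46, 7.46 and 7.46 in clones A2 to A5 and 6.71 in MDEC. It differed by −1.30 ± 0.09 (adjusted p = 0.00543), 2.46-fold. Ccne1 differed by −2.74 ± 0.10 and E2f1, the best known activator, by −2.06 ± 0.20.

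The wider G1/S list held calls in both directions. Of 24 other genes, 11 were called lower in clone A1, 2 higher and 11 did not pass in limma's fit. Lower were E2f7, the partner repressor of E2f8 (−2.47 ± 0.18), Ccnd1, cyclin D1 (−2.24 ± 0.23), and Tfdp1, the DNA-binding partner of E2F factors (−1.94). Higher were Rb1, the retinoblastoma protein that holds E2F back, at 0.61 ± 0.09 (adjusted p = 0.0211), and Cdkn1b, the cyclin-dependent kinase inhibitor p27, at 0.35 ± 0.05 (adjusted p = 0.0211). Rb1 stood at 8.75 in clone A1 and at 8.04 to 8.23 in the PECAM1+ clones, Cdkn1b at 10.52 and at 10.12 to 10.19, and clone A1 lay above the clones for both. Other genes of these kinds were called lower: Rbl1, a retinoblastoma relative, at −1.79, and the kinase inhibitors Cdkn2d at −0.67, Cdkn2c at −0.55 and Cdkn2b at −0.42. Cdkn2b stood at 5.66 in clone A1 and at 5.97 to 6.17 in the PECAM1+ clones. These levels are near those of the endothelial markers on the B16F10 arrays, so its signal over background was not known on any of them. The E2F factors E2f3 (−0.12), E2f4 (0.01), E2f5 (0.54) and E2f6 (0.35) did not pass, with adjusted p of 0.658, 0.99, 0.0589 and 0.273. Nor did Cdk2, at 0.35, Cdk6, at 0.43, or Ccnd2, at −0.20 (adjusted p of 0.499, 0.257 and 0.146), while Cdk4 was called lower by a small amount, −0.31 ± 0.03 (adjusted p = 0.0105).

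Chromatin assembly, maintenance methylation and Cdt1 degradation were lower in clone A1 in all 4 members, with a median of −2.46. Uhrf1, which brings the maintenance methylase to new DNA, had log2 levels of 6.58 in clone A1, 9.86 in parental cells, 9.76, 9.80, 9.61 and 9.81 in clones A2 to A5 and 7.47 in MDEC. It differed by −3.17 ± 0.10 (limma adjusted p = 0.00196), 8.98-fold lower. Dtl, the adaptor that marks Cdt1 for destruction in S phase, stood at 6.60 in clone A1, 9.42 in parental cells, 9.39, 9.33, 9.01 and 9.32 in clones A2 to A5 and 8.26 in MDEC. Clone A1 was lowest for both, and MDEC lay between it and the rest. Dtl differed by −2.67 ± 0.17 (adjusted p = 0.0046), 6.36-fold. Chaf1a, the large subunit of the histone chaperone CAF-1, stood at 6.45 in clone A1, 8.81 in parental cells, 8.68, 8.72, 8.47 and 8.61 in clones A2 to A5 and 7.03 in MDEC. Its difference was the smallest of the role, −2.17 ± 0.12 (adjusted p = 0.00345), 4.50-fold, and that of its partner Chaf1b was −2.25 ± 0.14. Among 8 other genes 3 were called lower, with Asf1b, a histone chaperone of cycling cells, at −3.09 ± 0.14 and Dnmt1, the maintenance methylase, at −1.64. Its paralogue Asf1a stood at 0.06 and did not pass (adjusted p = 0.564).

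Genes beside the members were tested in the same way. In limma's fit of clone A1 against the PECAM1+ clones, 45 of 82 other replication genes were called lower, 4 higher (Pold4, Rrm2b, Rb1 and Cdkn1b) and the rest did not pass, with a median of −0.66. All 25 mitosis and kinetochore genes were called lower, with a median of −3.35. At least 4-fold lower were 7 of the 82 and 24 of the 25, against 22 of the 39 members and 1.01% of all genes. The median over all genes was 0.00, and the shares of all genes called are given with the members above. The members and lists were chosen with earlier results of these data known, so the contrast between lists is no independent result. Of 10 checkpoint and fork protection genes, 4 were called lower, among them Clspn, the adaptor of the checkpoint kinase, at −1.73 ± 0.17, and Atr, the sensor kinase, at 0.15 did not pass (adjusted p = 0.815). Clspn stood at 5.41 in clone A1, so its difference is a lower bound on size where that is background. The 39 members lie on 15 chromosomes, with at most 5 on any chromosome.

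**Figure D3:**
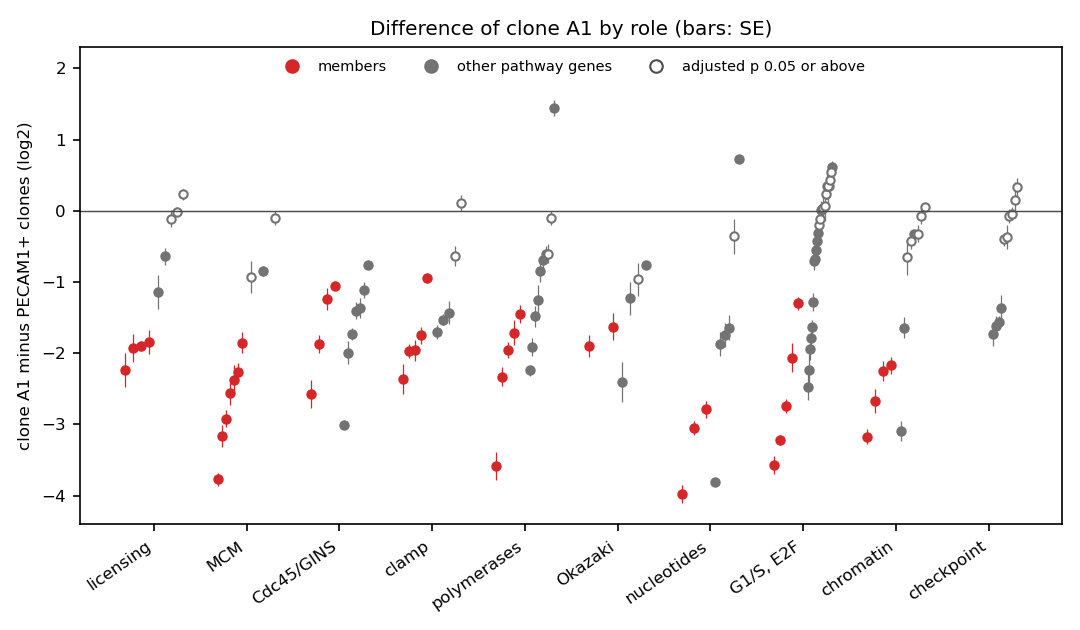
Difference of clone A1 from the mean of the 4 PECAM1+ clones (vertical axis, log2 units; bars, SE) for the 39 members (red) and 82 other replication genes (grey), by role. Open circles did not pass an adjusted p of 0.05; every red point is filled and lies between −3.98 and −0.95, whereas grey points run from −3.81 to 1.44.

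Clone A1 also lay below the other PECAM1− sample. Against parental cells, 39 of 39 members were called lower in limma's fit of all 6 B16F10 arrays, where 6.52% of all genes were called lower and 7.83% higher. The median difference of the members was −2.32, from −3.92 for Rrm2 to −0.87 for Pcna, with adjusted p from 0.00373 to 0.0374. Mcm5 differed by −3.64 ± 0.12, Pole by −3.69 ± 0.25, E2f8 by −3.45 ± 0.17 and Uhrf1 by −3.28 ± 0.13. Of the other replication genes, 38 of 82 were called lower and 4 higher. The 4 were Pold4 (1.45), Rrm2b (0.89), Rb1 (0.66) and Rbl2, a retinoblastoma relative (0.81, adjusted p = 0.0188). Rbl2 did not pass against the PECAM1+ clones (0.24, adjusted p = 0.118), nor Cdkn1b against parental cells (0.22, adjusted p = 0.11). Both arrays compared were single, so that the spread came from the PECAM1+ clones alone: without clone A5, 28 members were called, without clone A3, 29, and without clone A2, 38, with Gins3 lost in each (adjusted p of 0.101, 0.0792 and 0.0771).

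No member passed the test between parental cells and the PECAM1+ clones. In limma's fit 0 of 39 were called, where 0.00502% of all genes were called lower and as many higher (1 gene each way). At an unadjusted p under 0.05 lay 4 members (10.3%) and 13.5% of all genes. The median difference, parental minus PECAM1+ clones, was 0.05, with 21 members higher and 18 lower in parental cells, from −0.49 to 0.51. The highest were Fen1 at 0.51 ± 0.19, Rpa2 at 0.49 ± 0.18 and Cdt1 at 0.47 ± 0.20, with adjusted p of 0.392, 0.383 and 0.45. The lowest were Orc6 at −0.49 ± 0.07, Ccne1 at −0.30 ± 0.09 and Ccne2 at −0.26 ± 0.07, with adjusted p of 0.139, 0.314 and 0.262. These 3 and E2f2, at 0.45 ± 0.10 (adjusted p = 0.216), are the 4 with an unadjusted p under 0.05. Rpa2 stood at 9.81 in parental cells and 9.51, 9.38, 9.07 and 9.33 in clones A2 to A5, so that parental cells lay above each clone. Orc6 stood at 8.33 in clone A1, 9.75 in parental cells, 10.24, 10.28, 10.15 and 10.27 in clones A2 to A5 and 8.96 in MDEC, and Ccne1 at 8.25, 10.69, 10.98, 11.11, 10.89, 10.99 and 7.18 in the same order, with parental cells below each PECAM1+ clone in both. This comparison and that of clone A1 share the 4 PECAM1+ clones.

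The grouping by PECAM1 gave no call among the members. With clone A1 and parental cells as 1 group of 2, the PECAM1+ clones were higher in sign for 39 of 39 members. Of all genes, 10125 of 19938 were higher in sign. The median of the members was 1.04 log2 units (0.43 to 2.02), and 0 were called by limma, with adjusted p of 0.455 to 0.708. Clone A1 differed from the clone mean by −0.95 or lower for every member, and parental cells by at most 0.51. The shared sign therefore restates the clone A1 result. Over all genes, 0.00502% were called higher and 0.00502% lower. At an unadjusted p under 0.05 lay 1 member, Orc6 (1.20 ± 0.38), which is 2.56%, against 9.18% of all genes. All 4 PECAM1+ clones were above both PECAM1− samples for 5 members (12.8%), namely Orc6, Mcm5, Pcna, Ccne1 and Ccne2, and for 7.73% of all genes. The value rested on which PECAM1− sample was used: without parental cells 39 members were called and the median was 2.23, and without clone A1 0 were called and the median was −0.05.

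Among the PECAM1+ clones the members varied by small amounts, though by more than all genes in median SD, and not evenly. The SD over clones A2 to A5 had a median of 0.131 log2 units (0.035 to 0.242), against 0.098 over all genes. Clone A4 was the lowest clone for 33 of 39 members, where it was lowest for 30.0% of all genes. The exceptions were Mcm5, Pcna, Rfc4, Dscc1, Tyms and E2f2. Clone A2 was the highest clone for 27 of 39, against 25.8% of all genes. The median deviation of the members from their clone mean was −0.15 in clone A4, 0.03 in clone A3, 0.00 in clone A5 and 0.14 in clone A2. Clone A4 was also the lowest for 22 of 25 mitosis genes and 45 of 82 other replication genes. With each clone on a single array, the spread of a clone itself was not measured, and no test was made.

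**Figure D4:**
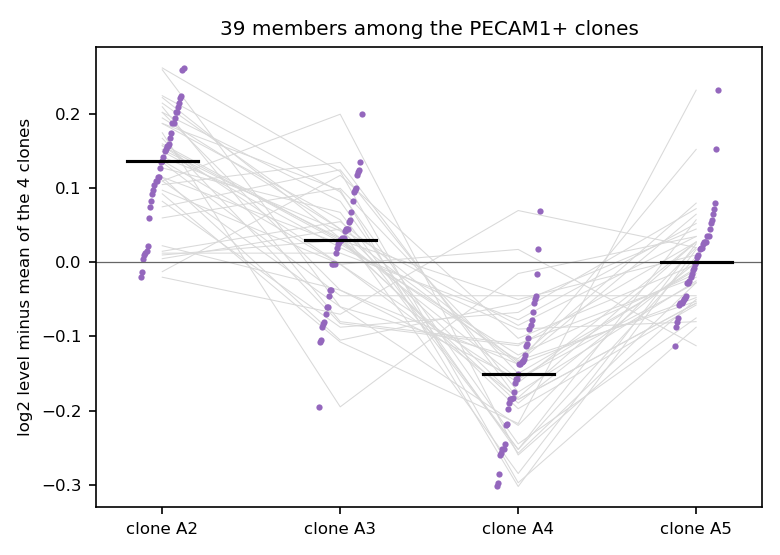
Deviation of each of the 39 members from its mean over the 4 PECAM1+ clones (vertical axis, log2 units), by clone; points are members in rank order within a clone, grey lines join a member across clones and black bars are medians. The median is −0.15 in clone A4 and 0.14 in clone A2, and most members are lowest in A4.

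MDEC, a single array with no replicate and hence no test, lay below parental cells and the PECAM1+ clones and mostly above clone A1. Its level was below parental cells and all 4 PECAM1+ clones for 39 of 39 members, against 31.6% of all genes, 60 of 82 other replication genes and 25 of 25 mitosis genes. Against clone A1 it was higher for 32 of 39 members, where 48.9% of all genes were higher. The median difference from clone A1 was 0.50 (from −1.08 to 2.53), and from parental cells −1.64 (from −3.71 to −0.75). Against the mean of the B16F10 group means the median was −1.06, with 0.00 over all genes, and without clone A1 it was −1.60.

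The gap between MDEC and clone A1 varied among members. All of Mcm2 to Mcm7 were 0.41 to 2.19 higher in MDEC than in clone A1, and these included the 3 members closest to the B16F10 mean: Mcm7 at −0.07, Mcm3 at −0.15 and Mcm4 at −0.18. That mean includes clone A1, and from parental cells MDEC differed by −0.77 for Mcm7, −0.86 for Mcm3 and −0.77 for Mcm4. Mcm7 stood at 9.87 in MDEC, 7.76 in clone A1, 10.64 in parental cells and 10.82, 10.72, 10.54 and 10.63 in clones A2 to A5. Mcm4 stood at 9.00, 7.27, 9.76, 10.03, 9.88, 9.65 and 9.78 in the same order. Both had MDEC between clone A1 and the other B16F10 arrays. Pole, at 2.53 above clone A1, had the widest gap of this kind. In 7 members MDEC was below clone A1: Ccne1 (−1.08), Gins3 (−0.54), Chaf1b (−0.45), Pola1 (−0.40), E2f1 (−0.24), Prim1 (−0.10) and Pold1 (7.46 against 7.47).

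By the rule of size, at least 4-fold from the B16F10 mean and outside all 6 B16F10 arrays, 2 members were lower in MDEC (2.01% of all genes) and 0 higher (2.72% of all genes). Ccne1, a cyclin E, stood at 7.18 in MDEC against 8.25 to 11.11 on the B16F10 arrays, −3.06 from their mean. Chaf1b stood at 7.77 in MDEC, 8.21 in clone A1, 10.44 in parental cells and 10.62, 10.46, 10.28 and 10.49 in clones A2 to A5, −2.13 from the mean. Rrm2, at −2.76, was further from the mean than Chaf1b but lay inside the range, since clone A1 was lower still. The count rested on clone A1: without it 13 members met the rule. No share of all genes was counted for that setting, so the 13 do not set the members apart from other genes.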

How the data were processed

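Total RNA of 7 samples was labelled with biotin and hybridised to 1 array each, per the labels' protocols. Each probe set has a deposited log2 value per array, and these ran from 1.39 to 13.54, and the submitters' processing notes name Partek. Its version is not given in the sources used here, nor are the summarisation, the background correction, the normalization and the array's genome build. The values were used as the authors deposited them. Precision is limited by the number of arrays.

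Of 35557 probe sets, 21789 had 1 gene symbol in the platform annotation, 1621 several and 12147 none, and only the first were named. By Entrez identifier 21698 of them matched RefSeq's gene table of GRCm38.p6, with 0 symbols changed. For 999 genes with several probe sets the brightest stood for the gene, which left 19938 genes. Some genes of the lists are not reported here.

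limma 3.58.1 in R 4.3.3 (lmFit, eBayes with trend, two-sided) was run on all genes with Benjamini-Hochberg adjustment and a threshold of 0.05. The fits were also run on simulated arrays, in which a lone array was drawn with the spread of the PECAM1+ clones. That simulation therefore could not test whether a real lone array varies like them. Clone A1 and parental cells were each compared with the 4 PECAM1+ clones in a fit of those 5 arrays, with each other in a fit of 3 groups, and together in a fit of 2 groups. A lone array was assumed to vary like the PECAM1+ clones. MDEC, with 1 array, was described by a rule of size: 4-fold or more away from the B16F10 level (averaged over the PECAM1+ and PECAM1− means) and beyond all 6 B16F10 arrays.

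The members and lists were chosen with earlier results of these data known. In each role, values on every array are given for the 2 members with the largest and the member with the smallest clone A1 difference. For parental cells and MDEC the 3 highest and 3 lowest members are named, and of the other pathway genes up to 3 with the largest difference in a role and up to 2 of opposite sign, with a few more chosen after their values were seen. Alternatives were quantile normalization, median centring, a filter on genes under a log2 level of 6 on every array, other treatments of probe sets, robust or untrended eBayes, array weights, other references and folds for MDEC, and leaving out each B16F10 array.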

Additional observations from a re-analysis of the deposited data

Results flagged for a closer look

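Among the 4 PECAM1+ clones, the gap from an extreme clone to its nearest neighbour was divided by the whole range for each member. For E2f2, clone A2 stood at a log2 level of 7.64, while the 3 other PECAM1+ clones held the identical value 7.46, so that the gap was the whole range (a ratio of 1.0), above Dixon's critical value. Chance exceeds that value in about 1 of 20 groups. E2f2 was the only member so marked among the 39, a smaller share than 1 of 20. Its ratio of 1.0 came from the 3 identical values, so it is no evidence that clone A2 differs.

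The difference from the PECAM1+ clones was itself unlike between the PECAM1− samples. Clone A1 was lower in sign than parental cells for 39 of 39 members and for 9657 of 19938 genes. The median of clone A1 minus parental cells was −2.32 for the members and 0.00 over all genes. This is the comparison of the PECAM1− samples given above and no separate result.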

How the results depend on the processing

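Clone A1 was lower in all 39 members under quantile normalization, median centring, the filter on dim genes, either treatment of probe sets, robust or untrended eBayes and the fit of 3 groups. Of 468 values of single members under alternatives, 0 reversed and 5 lost the call, and against parental cells 0 of 429 reversed and 22 lost it, each loss on leaving out clone A2, A3 or A5. Between parental cells and the PECAM1+ clones, members called stayed at 0 under every alternative run. With both PECAM1− samples as 1 group, members called higher ranged from 0 to 39 on leaving out an array and the median from −0.05 (without clone A1) to 2.23 (without parental cells). Members lower in MDEC by the rule of size were 2, but 4 against the mean of the 6 B16F10 arrays, 7 at 2-fold and 13 without clone A1. The share of all genes was not counted under these alternatives, so the larger counts do not set the members apart from other genes.

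Counts over all genes moved more. Those lower in clone A1 than the PECAM1+ clones were 1861, but 987 without clone A3 and 999 without clone A5, and those higher 2228, but 1221 and 1109. Against parental cells the lower were 1300, but 618 and 689, and the higher 1562, but 722 and 737. Leaving out clone A2 or clone A4 also left fewer clones in the fit, and the counts moved less. Parental cells were lower than the PECAM1+ clones in 1 gene, but in 2 under median centring or the dim filter, and higher in 1, but in 5 and 6, with 0 either way without clone A3, A4 or A5. Against the PECAM1− samples as 1 group, the PECAM1+ clones were called lower in 1 gene, but in 6 under quantile normalization. They were called lower in 5 under median centring or the dim filter, in 4 with robust eBayes, and in 0 without any 1 of the clones or with array weights. Without parental cells this comparison was that of clone A1 alone, with the counts given above. The cause was not tested. No paired analysis was made, because the labels name no pairing between samples. No detection calls were used, so signal over background was not known.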
